A study of Mus musculus with 19 samples.

Results

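The secretory program of the conducting airway was described through 10 genes: Scgb1a1, Scgb3a1, Scgb3a2, Cyp2f2, Bpifa1, Bpifb1, Muc5b, Hp, Cbr2 and Aldh1a1. They were chosen by name as known products of airway secretory cells, but with earlier results of these data known. All 10 were found among the 36528 gene IDs of each count table. The 19 libraries were made from mouse RNA, 9 from alveolar type II (AT2) cells obtained by sorting and 10 from whole lung tissue. Control mice carried SpcCreERT2, a tamoxifen-switched Cre recombinase made under the promoter of the gene for surfactant protein C, and the reporter RosatdTomato. Mice labelled Etv5KO carried both of these and, in addition, Etv5ko/loxp, that is 1 knockout allele and 1 allele flanked by loxP sites of Etv5, an ETS family transcription factor. Mice of both genotypes received tamoxifen at 100 mg/kg on 5 days, and tissue was taken after a wait of 5 days. AT2 cells were the EpCAM+ tdTomato+ CD45- CD31- cells. AT2 cells gave 4 control and 5 Etv5KO libraries, and lung gave 5 of each genotype. No age or sex is stated for the mice. The labels do not say which libraries came from the same mouse, so p-values measure the spread between libraries.

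Airway secretory cells, among them the club cells of the bronchioles, line the airways together with ciliated cells. They release secretoglobins, defence proteins and mucins into the airway fluid and carry enzymes that oxidise or reduce inhaled chemicals. AT2 cells, the surfactant-making cells of the alveolus, are a different epithelial lineage, but part of the secretory program is also read in them. Of the 10 genes, Scgb1a1, Scgb3a1 and Scgb3a2 encode secretoglobins, small secreted proteins. Bpifa1 and Bpifb1 encode secreted members of a family of lipid-binding defence proteins, Muc5b a gel-forming mucin, and Hp haptoglobin, which binds free haemoglobin. Cyp2f2 encodes a cytochrome P450 known for activating naphthalene in club cells, Cbr2 a carbonyl reductase, and Aldh1a1 an aldehyde dehydrogenase that makes retinoic acid.

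Libraries held between 14971793 and 28671262 counts in all, with 20279607 to 28671262 in control AT2 cells, 17426415 to 26722625 in Etv5KO AT2 cells, 14971793 to 26989453 in control lung and 20332410 to 22478603 in lung labelled Etv5KO. Values are given as CPM, which are counts scaled to library size, on 1 scale over all 19 libraries, and a gene is said to have risen or fallen where the Benjamini-Hochberg adjusted p of edgeR's quasi-likelihood test was under 0.05. Each of the 14 AT2 marker genes listed was higher in AT2 cells than in lung in controls, and all 10 endothelial, 12 leukocyte and 8 mesenchymal markers were lower, by the same test, when 35.6% of all genes were higher and 38.9% lower. The counts of Etv5 itself were no lower with the Etv5KO label, at 667 ± 36.1 CPM in control (SD, n = 4) and 714 ± 58.4 CPM in Etv5KO AT2 cells (SD, n = 5). In lung it was 104 ± 7.20 CPM in control and 113 ± 10.8 CPM in Etv5KO libraries (SD, n = 5 each). These counts cover the whole gene model and not the exons that recombination removes, so they do not check the genotype labels, and Etv5KO below is the name the labels give.

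Promoter sequence is shown for Cyp2f2 and Bpifb1, since both genes rose in AT2 libraries labelled Etv5KO. RefSeq promoter entries of assembly GRCm38.p6, which is not the build of the deposited files, were matched for 6 of the 10 genes, with 8 windows. Scgb1a1, Scgb3a2, Muc5b and Hp were not matched. Each line gives the 250 bases before the gene's start, 5′ to 3′ on the plus strand. Capitals mark the match to a motif searched. The windows are chr7:27119705-27119954 for Cyp2f2 and chr2:154190568-154190817 for the first of the 2 Bpifb1 starts.
Cyp2f2: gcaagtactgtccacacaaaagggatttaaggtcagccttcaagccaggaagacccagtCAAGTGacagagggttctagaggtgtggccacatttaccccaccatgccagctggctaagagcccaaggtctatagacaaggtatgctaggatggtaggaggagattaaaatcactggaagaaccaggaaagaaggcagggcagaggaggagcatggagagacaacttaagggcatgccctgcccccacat
Bpifb1: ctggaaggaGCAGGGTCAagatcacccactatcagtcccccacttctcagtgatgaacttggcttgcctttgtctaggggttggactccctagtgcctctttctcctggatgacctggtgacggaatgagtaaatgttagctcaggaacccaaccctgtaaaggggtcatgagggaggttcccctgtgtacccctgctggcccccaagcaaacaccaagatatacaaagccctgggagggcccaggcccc
Both strands were searched for 5 motifs, whose matches are a description of letters only and may overlap. Cyp2f2 held the NKX2-1 motif CAAGTG, 191 bases before the start, as 11.5% of 32536 promoter windows of the same length did. Bpifb1 held the antioxidant response element TGACNNNGC on the other strand, 241 bases before the start, a motif in 10.2% of windows. In the windows not printed, CAAGTG lay on the other strand 174 bases before the start of Scgb3a1 and on the gene's strand 115 bases before 1 start of Aldh1a1. The C/EBP motif TTGCNNAA lay on the other strand 13 bases before the other start of Aldh1a1 and is found in 9.57% of all windows. The ETS motif searched, CCGGAA, in 12.1% of all windows, and the FOXA motif TGTTTAC, in 3.17%, had no match in these 8 windows. The shorter letters GGAA, which CCGGAA contains, were not searched and occur in both printed windows. The lack of a CCGGAA match therefore does not show that these windows lack ETS sites.

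Scgb1a1, the most abundant secretoglobin of club cells, was the highest gene by count in each of the 10 lung libraries and a minor one in AT2 libraries. It took 1.44% to 2.68% of all counts in control and 1.74% to 2.40% in Etv5KO lung, and 0.0212% to 0.0454% in control and 0.0220% to 0.0514% in Etv5KO AT2 cells. In every AT2 library the first gene by count was Sftpc, which encodes surfactant protein C. In order of library number, Scgb1a1 stood at 517, 228, 564 and 318 CPM in control AT2 cells and at 562, 240.1, 422, 504 and 561 CPM in Etv5KO AT2 cells. The groups of AT2 libraries overlapped, and the library numbered 2 was the lowest in each. In lung it stood at 12368, 23038, 21086, 23935 and 22451 CPM in controls and at 19139.5, 17301, 15827, 21154 and 15836 CPM in Etv5KO. The lung groups overlapped as well, with control library 1 below all others.

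Per unit of gene length, Cbr2 was the highest of the 10 genes in AT2 cells and Scgb1a1 in lung. On the deposited RPKM scale, which divides by length and by the authors' size factor, Cbr2 had 4011 ± 563 in control AT2 cells, Hp 982 ± 203, Scgb1a1 816 ± 320 and Cyp2f2 58.8 ± 16.6 (SD, n = 4). The libraries of Hp and Scgb1a1 overlapped there, while Cbr2 lay above Hp, and Scgb1a1 above Cyp2f2, without overlap. The next levels were Scgb3a2 at 9.85 ± 4.47, Bpifa1 at 7.90 ± 5.47, Aldh1a1 at 5.51 ± 1.10 and Scgb3a1 at 4.30 ± 2.08 RPKM, and neighbours among these overlapped. Bpifb1 at 1.06 ± 0.437 and Muc5b at 0.0442 ± 0.0172 RPKM came last, without overlap. In control lung Scgb1a1 had 42571 ± 9886 RPKM, Cbr2 1835 ± 302 and Cyp2f2 1053 ± 263 (SD, n = 5), with no overlap between them. Hp, Aldh1a1 and Scgb3a2 followed at 557 ± 111, 327 ± 63.8 and 317 ± 81.4 RPKM, and neighbours from Cyp2f2 to Scgb3a2 overlapped. Scgb3a1, Bpifa1, Bpifb1 and Muc5b were at 1.44 ± 0.789, 0.537 ± 0.464, 0.107 ± 0.0550 and 0.0734 ± 0.0373 RPKM in control lung, with all neighbours overlapping. These 4 genes rested on few reads in control lung, with 9 to 51 counts per library for Scgb3a1, 2 to 42 for Bpifa1, 1 to 8 for Bpifb1 and 7 to 53 for Muc5b.

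**Figure D1:**
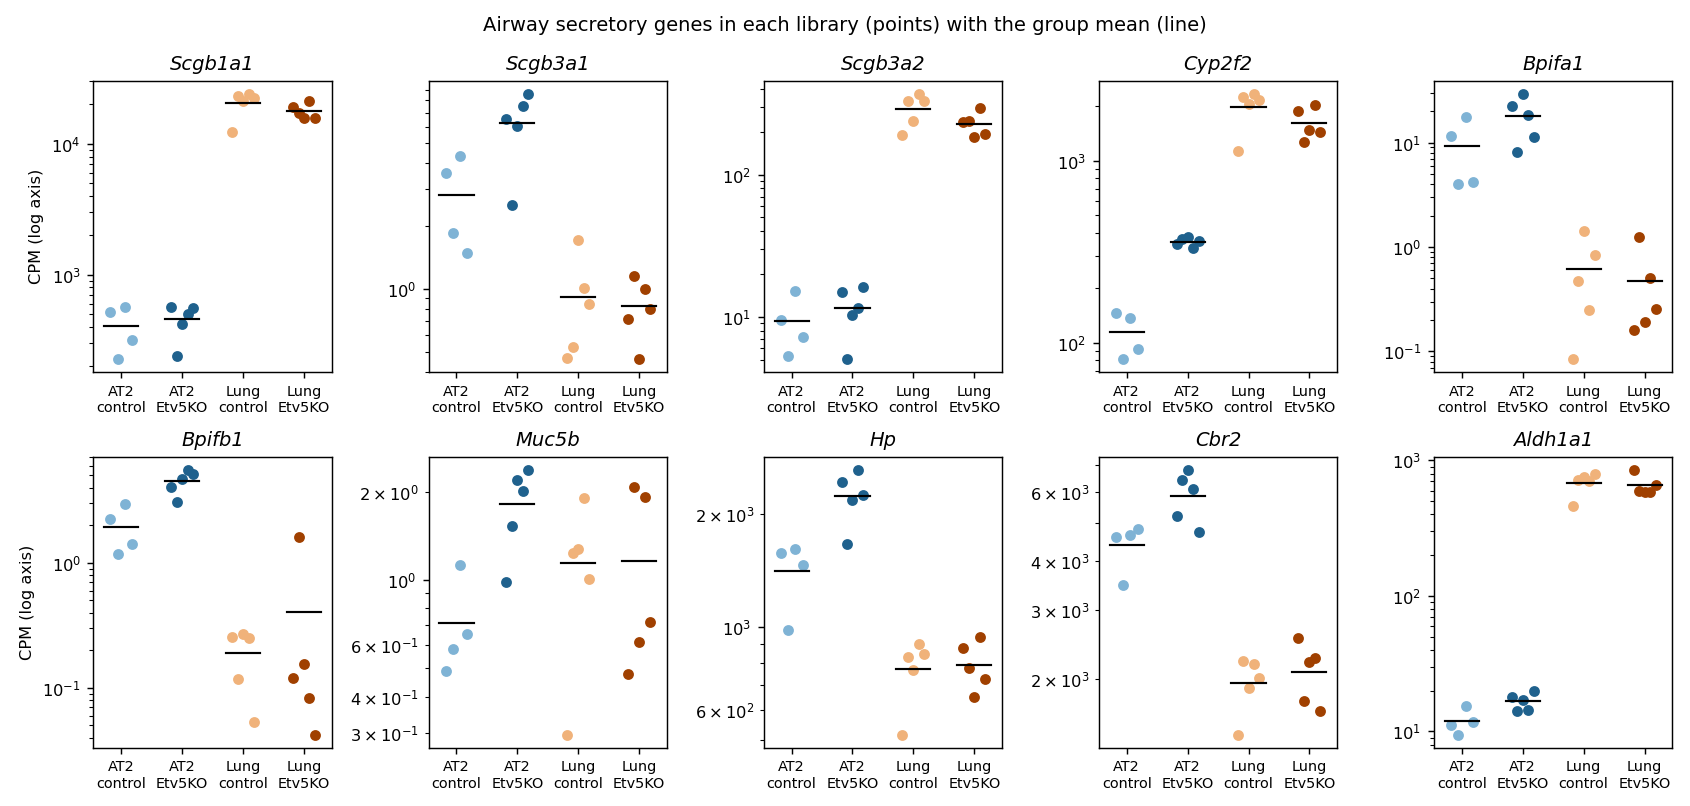
Level of each of the 10 airway secretory genes in CPM (log axis) in every library of the 4 groups; points are libraries and lines are group means. Scgb1a1, Scgb3a2, Cyp2f2 and Aldh1a1 are high in lung, and in AT2 cells all 5 Etv5KO libraries of Cyp2f2 lie between 332 and 381 CPM, above the controls at 81.4 to 146 CPM.

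In AT2 cells, 4 of the 10 genes were higher in libraries labelled Etv5KO than in controls and none was lower. Cyp2f2 rose 3.16-fold, Muc5b 2.54-fold, Bpifb1 2.31-fold and Hp 1.59-fold. All 10 log2 fold changes were above 0, with a median of 0.80, whereas the median of all 14939 genes tested was -0.01 and 48.8% of genes were above 0. The 10 genes were chosen with earlier results of these data known, so this contrast is a description only. Markers of some other cell types were also mostly above 0 in these libraries, with 10 of 10 endothelial (median 0.30) and 8 of 8 mesenchymal (0.45). The same held for 9 of 12 AT1 (0.42), 7 of 9 ciliated (0.22) and 2 of 2 neuroendocrine markers (0.26). Leukocyte markers had 7 of 11 above 0 (0.06), AT2 markers 3 of 14 (-0.31) and basal markers 0 of 1 (-0.14). By edgeR's adjusted p, 9.87% of all genes tested in AT2 cells were called, with 5.03% higher and 4.84% lower in Etv5KO. These were 751 higher and 723 lower, and with scaling by library size alone 894 and 482, when Cbr2 and Aldh1a1 were called higher as well. Without control library 4 only Cyp2f2 and Bpifb1 were called. In bulk samples, a difference in the number of cells of a type and in the RNA per cell cannot be told apart.

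Cyp2f2, the P450 of club cells, stood at 146, 81.4, 137 and 92.2 CPM in the control AT2 libraries and at 349, 372, 381, 332 and 361 CPM in those labelled Etv5KO. Every Etv5KO library was above every control, and the coefficient of variation was 5.44% in Etv5KO and 28.04% in controls. The means were 359 ± 19.5 (SD, n = 5) and 114 ± 32.0 CPM (SD, n = 4), a log2 fold change of 1.66 with a standard error of 0.16 (edgeR adjusted p = 6.37e-05). This was the smallest adjusted p of the 10 genes in AT2 cells. Leaving out each library in turn gave log2 fold changes of 1.53 to 1.80, with edgeR adjusted p from 5.08e-05 to 0.0003.

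Among the secreted defence proteins, Bpifb1 had 2.23, 1.17, 2.94 and 1.42 CPM in control AT2 libraries and 4.07, 3.06, 4.69, 5.53 and 5.11 CPM in Etv5KO. The groups did not overlap, and the log2 fold change was 1.21 with a standard error of 0.27 (edgeR adjusted p = 0.0149). The related Bpifa1 was more abundant and more variable, at 3.99 to 17.5 CPM in controls and 8.18 to 29.0 CPM in Etv5KO. Its groups overlapped, and its log2 fold change of 0.94, with a 95% interval from -0.08 to 1.96, did not pass (edgeR adjusted p = 0.268). The mucin gene Muc5b rested on 9 to 26 counts per control library and 15 to 52 per Etv5KO library. It had 0.488, 0.584, 1.13 and 0.653 CPM in controls and 0.985, 1.53, 2.20, 2.02 and 2.37 CPM in Etv5KO, so that 1 control library overlapped the Etv5KO group. Its log2 fold change was 1.34 with a standard error of 0.32 (edgeR adjusted p = 0.0191). That call was lost without control library 1 or 4, at edgeR adjusted p up to 0.06, and both Bpifb1 and Muc5b were not called in a fit of all 19 libraries (edgeR adjusted p = 0.144 and 0.088).

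Hp, haptoglobin, was abundant in AT2 cells, between the 25th and 77th place by count. Its control AT2 libraries had 1573, 979, 1614 and 1462 CPM and its Etv5KO libraries 2424, 1661, 2179, 2614 and 2247 CPM. The groups did not overlap, and the log2 fold change was 0.67 with a standard error of 0.16 (edgeR adjusted p = 0.0235). Without Etv5KO library 1, 4 or 5, or without control library 4, the edgeR adjusted p was 0.0516 to 0.0564, at log2 fold changes of 0.60 to 0.69. Of the 10 genes, 3 had groups without overlap in AT2 cells, Cyp2f2, Bpifb1 and Hp, and over all genes tested 12.4% did so, with 5.9% higher in Etv5KO.

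The secretoglobins did not pass the test in AT2 cells. Scgb1a1 averaged 407 ± 160.0 CPM in control libraries (SD, n = 4) and 458 ± 134 CPM in those labelled Etv5KO (SD, n = 5), a log2 fold change of 0.18 with a 95% interval from -0.45 to 0.81 (edgeR adjusted p = 0.785). Without control library 2 it was -0.01. Scgb3a2, a secretoglobin of the same cells, was at 9.31 ± 4.28 and 11.6 ± 4.34 CPM, a log2 fold change of 0.31 with an interval from -0.43 to 1.06 (edgeR adjusted p = 0.667). Scgb3a1, known from the larger airways, was at 2.81 ± 1.37 and 6.23 ± 2.28 CPM. Its log2 fold change of 1.14, interval 0.33 to 1.95, was nearly as large as that of Bpifb1, but it was more variable (edgeR adjusted p = 0.0817). The enzymes Cbr2, at 4384 ± 623 and 5859.5 ± 868 CPM, and Aldh1a1, at 11.9 ± 2.47 and 16.7 ± 2.46 CPM, had log2 fold changes of 0.42 and 0.49 (edgeR adjusted p = 0.0765 and 0.0683). The intervals of Cbr2, Aldh1a1 and Scgb3a1 excluded 0 while their edgeR adjusted p did not pass. DESeq2 called each of them higher in Etv5KO. By edgeR, Scgb3a1 and Aldh1a1 were called without Etv5KO library 2, and Aldh1a1 without control library 3 (lowest edgeR adjusted p 0.0176 and 0.0258).

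In lung tissue none of the 9 genes that could be tested differed by genotype, and none had an unadjusted p under 0.05. DESeq2 called none either. Cre was made under the surfactant protein C promoter, and recombination in the airway secretory cells of lung was not measured. These lung values therefore do not test a loss of both Etv5 alleles in those cells. The knockout allele of Etv5KO mice does not depend on Cre, so the genotypes also differ by 1 allele in cells without recombination. By edgeR's adjusted p, 0.415% of the 17098 genes tested in lung were called. Bpifb1 was left out by the filter on low counts, with 1 to 8 counts in control libraries and 1 to 4 counts in Etv5KO libraries other than library 2, which had 38. The adjusted p of the 9 genes ran from 0.97 to 1.0 by edgeR, with a median log2 fold change of -0.20 against -0.01 over all genes. The log2 fold change was above 0 for 2 of the 9, Hp and Cbr2, and for 46.0% of all genes tested in lung. No gene of the 9 had groups without overlap, which 1.52% of all genes had.

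Cyp2f2 in lung stood at 1126, 2252, 2046, 2319 and 2148 CPM in controls and at 1866, 1271, 1473, 2013 and 1439.7 CPM in Etv5KO. The controls held both the lowest and the highest of the 10 libraries, and the log2 fold change was -0.30 with a 95% interval from -0.73 to 0.12 (edgeR adjusted p = 0.978). Without control library 1 it was -0.45 (edgeR adjusted p = 0.222). Scgb1a1 had a log2 fold change of -0.21, interval -0.63 to 0.21, and Scgb3a2, at 290.3 ± 73.4 and 228 ± 44.5 CPM (SD, n = 5 each), one of -0.35, interval -0.75 to 0.04 (edgeR adjusted p = 0.978 and 0.97). Hp, Cbr2 and Aldh1a1 had narrow intervals in lung, from -0.30 to 0.36, from -0.24 to 0.42 and from -0.41 to 0.26 on the log2 scale. Those of the sparse genes were wide: -0.98 to 0.58 for Scgb3a1, -1.05 to 1.04 for Muc5b and -1.94 to 1.05 for Bpifa1, so changes of 2-fold were not excluded for Muc5b and Bpifa1 at this depth.

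**Figure D2:**
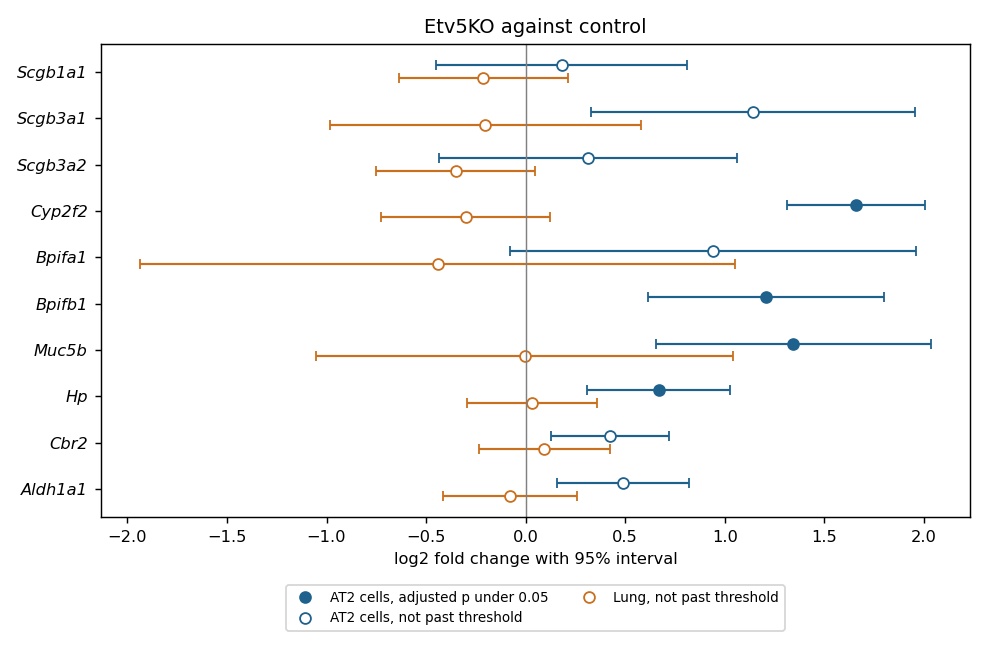
Log2 fold change of Etv5KO against control for each gene, with its 95% interval, in AT2 cells (blue) and lung (orange); filled circles passed an adjusted p under 0.05. Cyp2f2 at 1.66, Muc5b at 1.34, Bpifb1 at 1.21 and Hp at 0.67 passed in AT2 cells, no gene passed in lung, and Bpifb1 has no lung value because it was not tested there.

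The genotype effect itself differed between AT2 cells and lung for Cyp2f2 alone among the 10 genes, in an interaction term over all 19 libraries that called 1.59% of 17698 genes. For Cyp2f2 the AT2 effect exceeded the lung effect by 1.95 on the log2 scale, with a standard error of 0.27 (edgeR adjusted p = 0.000296), and by 1.84 to 2.12 with each library left out in turn. Whole lung includes AT2 cells, and control AT2 cells held 5.77% of the Cyp2f2 level of lung. A change in AT2 cells alone would therefore move the lung value little. The interaction does not show how AT2 cells within lung responded. The differences of the other 9 genes did not pass and were above 0, at 0.25 for Bpifb1, 0.32 for Cbr2, 0.38 for Scgb1a1, 0.55 for Aldh1a1, 0.62 for Hp, 0.64 for Scgb3a2, 1.33 for Scgb3a1, 1.34 for Muc5b and 1.38 for Bpifa1. Over all genes, 48.4% of differences were above 0. Their edgeR adjusted p lay between 0.274, for Hp, and 0.981, for Bpifb1. The difference of Bpifb1 was 2.16 without Etv5KO lung library 2, where it had 38 counts, and -0.01 or -0.04 without Etv5KO lung library 4 or 5. That of Bpifa1 was 0.68 without control lung library 3 and 2.11 without Etv5KO lung library 2. Unadjusted, p was under 0.05 for 5 of the 10 genes, Cyp2f2, Scgb3a1, Muc5b, Hp and Aldh1a1, whose intervals excluded 0. For Muc5b and Hp, which rose in AT2 cells, a difference from lung did not pass adjustment, and the interval for Hp ran from 0.14 to 1.11.

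Against lung, the 10 genes divided into those that were scarce in AT2 cells and those that were richer in them. In control mice 9 of the 10 passed the test between the tissues, and 74.5% of the 17118 genes tested did so by edgeR's adjusted p, 35.6% higher and 38.9% lower in AT2 cells. Scgb1a1, Scgb3a2, Cyp2f2 and Aldh1a1 were lower in AT2 cells, by 50.6-fold, 30.9-fold, 17.3-fold and 57.3-fold. Scgb3a1, Bpifa1, Bpifb1, Hp and Cbr2 were higher, by 3.0-fold, 14.8-fold, 9.46-fold, 1.82-fold and 2.25-fold. The lung levels of Scgb3a1, Bpifa1 and Bpifb1 rested on 9 to 51, 2 to 42 and 1 to 8 counts per control library. Bpifb1 entered this test through its AT2 libraries, since the filter on low counts left it out of the lung comparison. The size of the fold differences of Scgb3a1, Bpifa1 and Bpifb1 is therefore uncertain. The largest edgeR adjusted p among the 9 genes that passed was 0.00383, for Scgb3a1. Without control lung library 3 the log2 difference of Bpifa1 was 4.56 in place of 3.88. In 8 of the 10 genes the control AT2 and lung libraries did not overlap, as in 66.5% of all genes tested.

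In mice labelled Etv5KO the same 9 genes passed in the same directions, when 78.0% of 16740 genes did by edgeR's adjusted p, 38.3% higher and 39.7% lower. In 9 of the 10 the libraries did not overlap, as in 65.5% of all genes tested. The fold differences were 38.5-fold lower for Scgb1a1, 19.6-fold lower for Scgb3a2, 4.44-fold lower for Cyp2f2 and 38.7-fold lower for Aldh1a1. They were 7.62-fold higher for Scgb3a1, 38.8-fold for Bpifa1, 11.4-fold for Bpifb1, 2.84-fold for Hp and 2.84-fold for Cbr2. Here too the sparse genes had few lung counts per library, 12 to 27 for Scgb3a1, 4 to 29 for Bpifa1 and 1 to 38 for Bpifb1. Without Etv5KO lung library 2 the log2 difference was 5.41 in place of 3.51 for Bpifb1 and 6.01 in place of 5.28 for Bpifa1. Muc5b passed in neither genotype, with log2 differences of -0.67 in controls and 0.69 in Etv5KO (edgeR adjusted p = 0.187 and 0.128). Scaling by library size alone moved the median log2 difference of all genes from -0.01 to -0.42 in controls and from 0.01 to -0.36 in Etv5KO. The calls in controls were then 3320 higher and 9479 lower in place of 6092 and 6662, and in Etv5KO 3583 and 9332 in place of 6417 and 6646. Under that scaling Muc5b was called lower in control AT2 cells at -1.08 (edgeR adjusted p = 0.0382), and the other 9 genes kept their directions and their calls in both genotypes. Muc5b was called also without control lung library 1, at -0.92, and, in the other direction, without Etv5KO lung library 2 or 4, at 1.00 and 0.94 (edgeR adjusted p = 0.0189, 0.0334 and 0.0492).

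**Figure D3:**
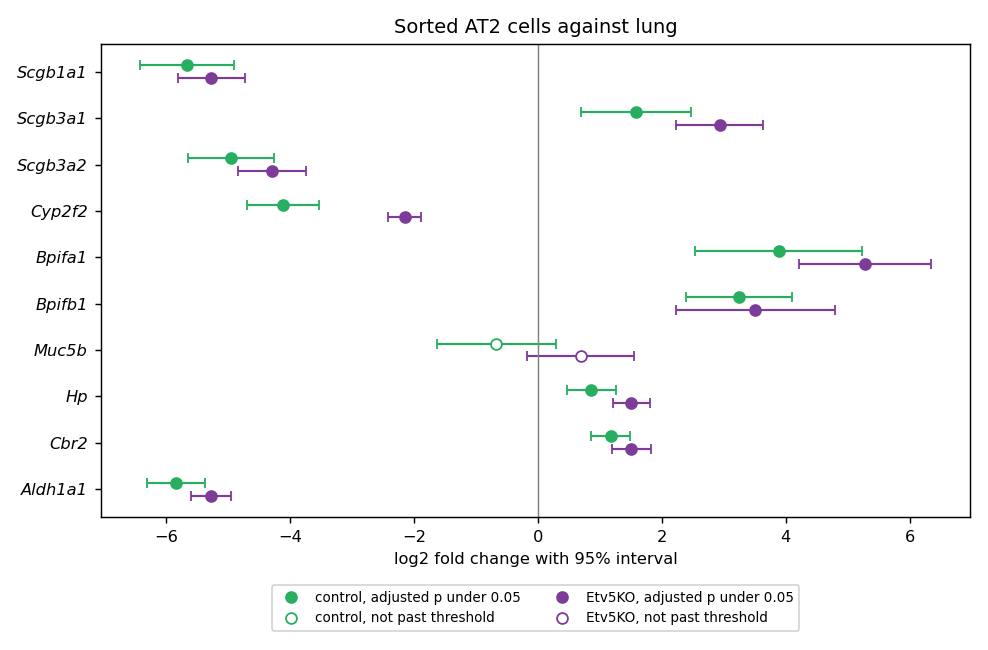
Log2 fold change of sorted AT2 cells against lung for each gene with its 95% interval, in control mice (green) and mice labelled Etv5KO (purple); filled circles passed an adjusted p under 0.05. Scgb1a1, Scgb3a2, Cyp2f2 and Aldh1a1 lie left of 0, Muc5b did not pass, and Cyp2f2 moves from -4.12 in controls to -2.15 in Etv5KO.

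Expressed as a share of the mean lung level, AT2 cells held 1.98% of the Scgb1a1 of lung in controls and 2.57% in Etv5KO, and 1.74% and 2.56% of the Aldh1a1. Scgb3a2 was at 3.21% and 5.06%. Cyp2f2 was at 5.77% in controls and 22.3% in Etv5KO. Of the genes richer in AT2 cells, Bpifa1 was at 1519% and 3812% of its lung level, Bpifb1 at 1027% and 1115% and Scgb3a1 at 308% and 753%. All of these 3 genes had few counts in lung. The Etv5KO lung mean of Bpifb1, 0.403 ± 0.679 CPM (SD, n = 5), rested on library 2 at 1.62 CPM. The other libraries had 0.0423 to 0.154 CPM, so the share of 1115% depends on that library. AT2 cells held 225% and 281% of the Cbr2 level of lung and 182% and 281% of the Hp level. A close relative of Aldh1a1, Aldh1a7, had the opposite tissue pattern, at 213 ± 20.9 CPM in control AT2 cells (SD, n = 4) and 96.5 ± 19.3 CPM in control lung (SD, n = 5). The authors kept only uniquely aligned reads, so the counts of this pair are uncertain where their sequences are alike. Aldh1a7 was at 211 ± 12.0 CPM in Etv5KO AT2 cells, a log2 fold change of -0.01 against control (edgeR adjusted p = 0.975).

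Ratios of counts within a library do not depend on how libraries are scaled. Per 100 counts of Scgb1a1, Cyp2f2 had 9.10 to 9.77 counts in lung of controls and 7.35 to 9.75 in lung labelled Etv5KO, while Scgb1a1 itself ran from 12368 to 23935 CPM over the lung libraries. In AT2 cells the ratio was 24.3 to 35.7 in controls and 62.0 to 155 in Etv5KO, with means of 29.3 ± 4.74 (SD, n = 4) and 87.5 ± 39.4 (SD, n = 5). The groups did not overlap, and the highest value belonged to Etv5KO library 2, which had the lowest Scgb1a1 of its group. Without that library the mean was 70.6. Every AT2 library had more Cyp2f2 per Scgb1a1 than every lung library, in both genotypes.

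Aldh1a1 kept about the same ratio to Scgb1a1 in the 4 groups. Its means per 100 Scgb1a1 counts were 3.19 ± 0.902 in control and 3.90 ± 1.18 in Etv5KO AT2 cells, and 3.38 ± 0.340 in control and 3.69 ± 0.654 in Etv5KO lung, with overlapping ranges. Scgb3a2 had 1.84 to 2.70 counts per 100 of Scgb1a1 in control and 2.11 to 2.87 in Etv5KO AT2 cells, above the 1.12 to 1.54 of control and 1.16 to 1.39 of Etv5KO lung. Scgb3a1 had 0.467 to 0.812 counts per 100 in control and 1.06 to 1.53 in Etv5KO AT2 cells, and at most 0.00811 in lung. Bpifa1 had 1.33 to 3.11 in control and 2.00 to 6.87 in Etv5KO AT2 cells, and at most 0.00713 in lung. Both stood in a far higher proportion to Scgb1a1 in every AT2 library than in any lung library. These ratios are given as a description and were not tested.

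**Figure D4:**
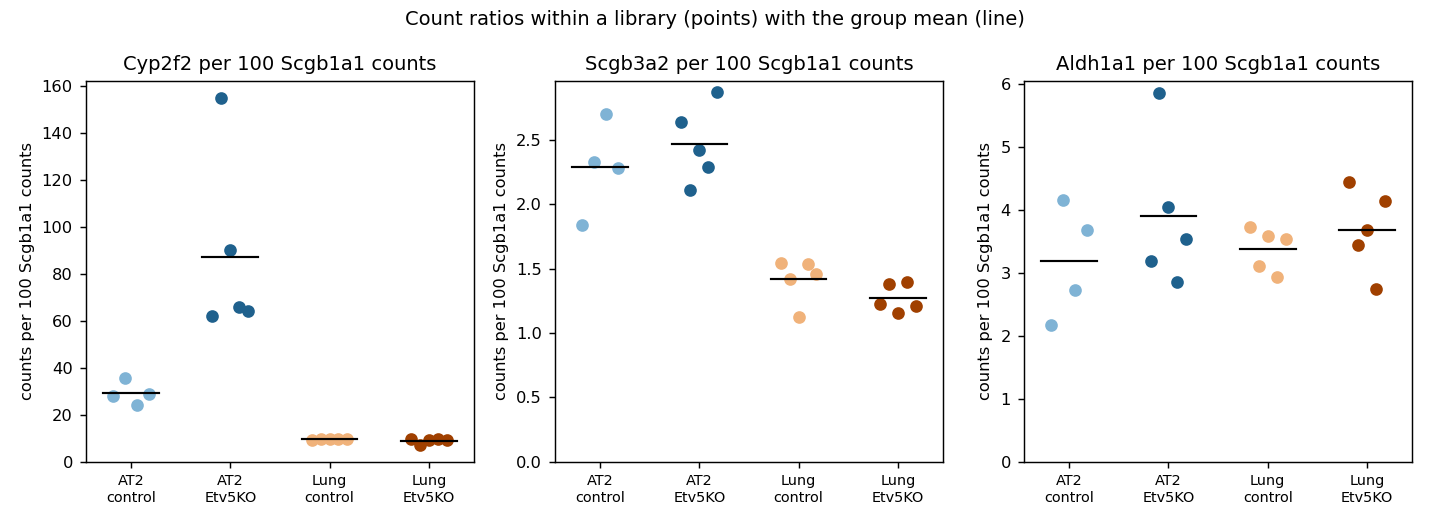
Counts of Cyp2f2, Scgb3a2 and Aldh1a1 per 100 counts of Scgb1a1 in each library (points) of the 4 groups, with the group mean (line); the vertical axes start at 0. Cyp2f2 lies near 9 in lung, at 24.3 to 35.7 in control AT2 cells and at 62.0 to 155 in Etv5KO AT2 cells, while Aldh1a1 overlaps across the 4 groups.

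Within a group, the genes of the list were often low or high in the same libraries. Control lung library 1 had the lowest value of its group for 9 of the 10 genes, all except Bpifb1. Control AT2 library 2 had the lowest value for 8 of the 10 and Etv5KO AT2 library 2 for 7 of the 10, while control AT2 library 3 had the highest for 8. Library 2 of each AT2 group was also the lowest for Sftpc, at 53501 CPM in control and 57490.1 CPM in Etv5KO, against group means of 78547 ± 17856 (SD, n = 4) and 70072 ± 9829 CPM (SD, n = 5). Numbers in 1 group have no relation to those in another.

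The deviations of log2(CPM + 0.5) from the group mean were correlated with those of Scgb1a1, over 9 AT2 or 10 lung libraries, with exact permutation within genotype and adjustment over 18 relations. Scgb3a2 followed Scgb1a1 in both tissues, with Pearson's r of 0.96 in AT2 cells (adjusted exact permutation p = 0.00417) and 0.89 in lung (0.00417), and Spearman's rho of 0.93 and 0.92 (0.00625 each). In AT2 cells Scgb3a1, Hp and Bpifb1 also passed, at r of 0.92, 0.90 and 0.89 (adjusted exact permutation p = 0.0339, 0.0203 and 0.025) and rho of 0.90, 0.75 and 0.82 (0.0462, 0.0848 and 0.0869). In lung Hp, Cyp2f2 and Cbr2 passed, at r of 0.97, 0.95 and 0.79 (adjusted exact permutation p = 0.00375, 0.024 and 0.0422) and rho of 0.94, 0.93 and 0.71 (0.005, 0.00625 and 0.0848). Cyp2f2 in AT2 cells had an r of 0.61 and a rho of 0.57 (adjusted exact permutation p = 0.312 and 0.394), and Cbr2 an r of 0.01. A difference between tissues in these correlations was not tested.

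Without the 2 libraries farthest from the median of Scgb1a1, none of these relations passed. In AT2 cells, without library 2 of each group, r was 0.93 for Scgb3a1, 0.87 for Scgb3a2, 0.73 for Bpifb1 and 0.55 for Hp. In lung, without control library 1 and Etv5KO library 3, r was 0.98 for Hp, 0.86 for Scgb3a2, 0.85 for Cyp2f2 and 0.84 for Cbr2. Fewer libraries allow fewer permutations, so the lost calls do not show that these relations rest on the libraries left out. Among those that had passed, r fell most for Hp in AT2 cells, from 0.90 to 0.55, and was no lower for Scgb3a1 in AT2 cells or for Hp and Cbr2 in lung.

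**Figure D5:**
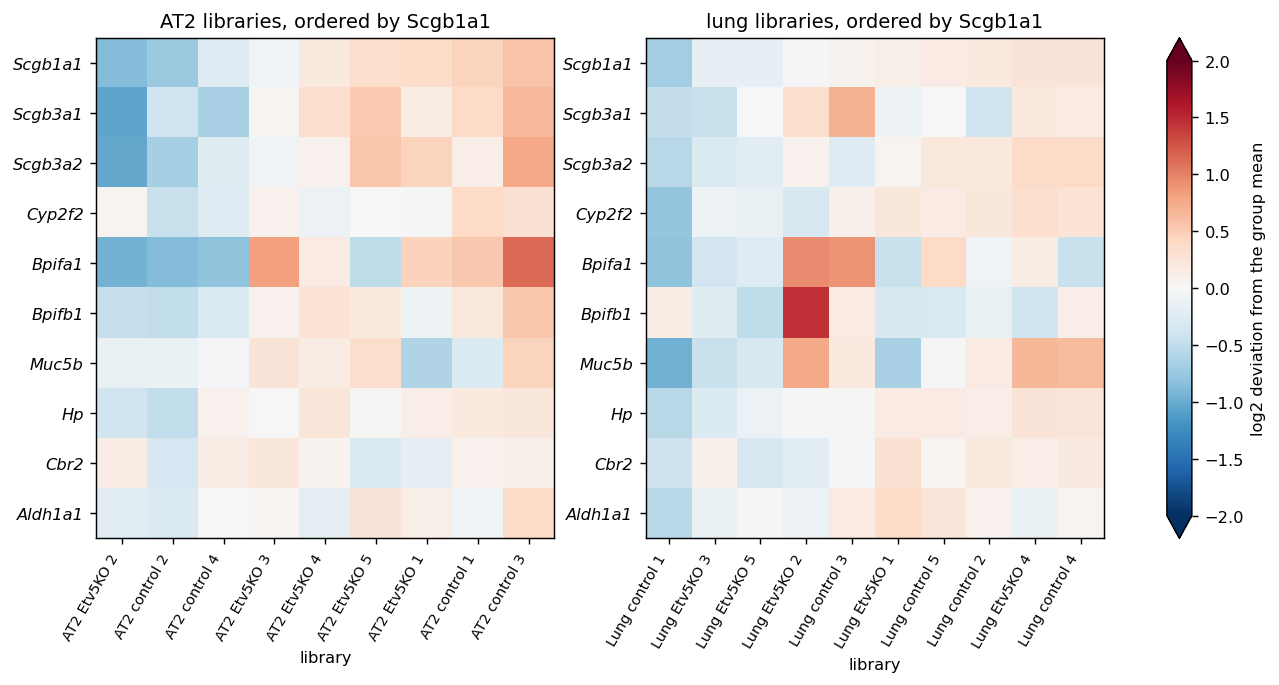
Log2 deviation of each gene from its group mean in every library, with AT2 libraries (left) and lung libraries (right) ordered from low to high Scgb1a1; blue is below and red above the group mean. The libraries at the left of each panel, Etv5KO 2 and control 2 in AT2 cells and control 1 in lung, are blue for most genes, and Cyp2f2 in Etv5KO AT2 cells stays near white.

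The genes whose deviations were most like those of Scgb1a1 and Cyp2f2 were ranked by Pearson's r, as a description over libraries that share depth and composition. Over the 9 AT2 libraries, those most like Scgb1a1 among 10607 genes averaging 5 CPM or more were Cand2, Yeats4, Nudt2, 2610001J05Rik and Ndufa9, with r of 0.98 to 0.99. For Cyp2f2 in AT2 cells they were Mfsd6l, Hgsnat, P4hb, Sar1a and Aqp1, with r of 0.89 to 0.92. Over the 10 lung libraries, among 12132 genes, Mycbpap, Traf3ip1, Cldn10, Hp and Ak7 were most like Scgb1a1, with r of 0.97 to 0.98. For Cyp2f2 in lung they were Acaa1b, Cfap57, Ces1e, Lpar3 and Baiap2l1, with r of 0.95 to 0.99.

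Other genes of the airway secretory program moved in both directions in AT2 cells. Of 30 listed, 23 could be tested, 5 rose and 3 fell in libraries labelled Etv5KO, with a median log2 fold change of 0.31. Of all genes tested in AT2 cells, 5.03% rose and 4.84% fell. Sec14l3, which encodes a lipid-binding protein of the airway epithelium, was the most abundant of those that rose, from 485 ± 54.8 CPM (SD, n = 4) to 942 ± 122 CPM (SD, n = 5), a log2 fold change of 0.96 (edgeR adjusted p = 0.000205). Cyp4b1, a further cytochrome P450, rose from 15.8 ± 4.37 to 28.9 ± 5.45 CPM (edgeR adjusted p = 0.0128). The receptor gene Cckar fell from 21.9 ± 4.32 to 9.18 ± 2.59 CPM and the glutathione transferase gene Gsta3 from 29.4 ± 3.66 to 20.1 ± 1.66 CPM (edgeR adjusted p = 0.00187 and 0.0037). Lypd2, Muc16 and Muc20, named after their values were seen, were further calls, and each was lost in 6 to 11 of the alternative fits. The 8 calls were 5 without Etv5KO library 1 or 4 or control library 1 or 3. Upk3a was at 0 in all Etv5KO AT2 libraries. The genotype effect differed between AT2 cells and lung for Sec14l3, by 0.81, and for Cckar, by -1.13, on the log2 scale (edgeR adjusted p = 0.00382 and 0.0242), and the latter call was lost without control AT2 library 1 or 3 or Etv5KO AT2 library 3. In lung, 24 of the 30 were tested and none was called by edgeR's adjusted p or by DESeq2, and 1, Retnla, had an unadjusted edgeR p under 0.05. In control AT2 cells against lung 6 of 24 tested were higher and 16 lower, where 35.6% and 38.9% of all genes were.

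Of 22 listed transcription factors and Notch components of airway secretory cells, 21 were tested in AT2 cells, 2 rose and 3 fell, with a median log2 fold change of -0.07. Over all genes tested there, 5.03% rose and 4.84% fell. Cebpa, a C/EBP factor, fell from 877 ± 111 CPM (SD, n = 4) to 509 ± 106 CPM (SD, n = 5), and Creb3l1, a factor of the secretory pathway, from 76.1 ± 8.20 to 47.9 ± 4.68 CPM (edgeR adjusted p = 0.00538 and 0.00079). Foxa1 fell from 154 ± 20.8 to 118 ± 7.53 CPM, and the Notch ligand gene Jag1 rose from 85.9 ± 13.7 to 146 ± 29.7 CPM (edgeR adjusted p = 0.0216 and 0.00726). Foxa3, named after its value was seen, was the other rise. The calls of Foxa1 and Foxa3 were lost in 4 and 9 of the alternative fits, and the 5 calls were 3 without Etv5KO library 1 or 5 or control library 1 or 4. Cebpa was the only gene of this list called in lung, where it fell from 186 ± 15.5 to 129 ± 17.6 CPM (SD, n = 5 each), a log2 fold change of -0.54 (edgeR adjusted p = 0.0305, and 0.0578 to 0.102 in the 9 alternative fits that lost it). The genotype effects of this list differed between the tissues for none of 22 genes by edgeR's adjusted p, for 3 (Jag1, Notch1 and Creb3l1) at an unadjusted p under 0.05, and for 1, Jag1, by DESeq2.

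Hp is also an acute phase gene. Of 12 listed acute phase and STAT3 genes, 11 were tested in AT2 cells, where 5.03% of all genes rose and 4.84% fell. None of the 11 rose and 2 fell, Lcn2 from 940 ± 354 to 249 ± 52.2 CPM and Lrg1 from 663 ± 165 to 260 ± 57.4 CPM (edgeR adjusted p = 0.000327 and 0.00112). Lcn2, which encodes lipocalin 2, also fell in lung, from 103 ± 42.8 to 40.8 ± 6.27 CPM (edgeR adjusted p = 0.0237, lost in 6 alternative fits that leave out 1 library), and it was the only call among 11 tested there. In AT2 cells the log2 fold change was thus 0.67 for Hp and -1.91 for Lcn2, the lowest of the 11. It was above 0 also for Serpina3n (0.87), Orm1 (0.44) and Stat3 (0.09), which did not pass, and the median of the 11 was -0.35.

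Markers of some other cell types were called by genotype in AT2 libraries, where 9.87% of all genes were. Summed ciliated cell markers were 218 to 240 CPM in control and 275 to 359 CPM in Etv5KO AT2 cells, against 432 to 647 CPM in control lung. Most of the AT2 sums came from Tppp3 and from Tubb4b, the latter at 112 ± 5.87 CPM in control and 111 ± 16.6 CPM in Etv5KO. Between control AT2 cells and control lung, 1 of the 15 was higher and 12 were lower, with a median log2 difference of -5.05. Of all genes, 35.6% were higher and 38.9% lower in that comparison. Of the 15, 9 were tested in AT2 cells and 2 rose, from 96.2 ± 6.87 to 153 ± 23.5 CPM for Tppp3 and from 16.6 ± 2.48 to 26.3 ± 5.44 CPM for Dynlrb2 (edgeR adjusted p = 0.0022 and 0.0219). The call of Dynlrb2 was lost without Etv5KO library 1, 3 or 4 or control library 4, which left 1 call. Log2 fold changes were above 0 for 7 of the 9, with a median of 0.22. Foxj1, the defining factor of ciliated cells, was at 2.81 ± 0.545 and 2.72 ± 0.331 CPM in control and Etv5KO AT2 cells, and 59.4 ± 11.4 CPM in control lung. None of the 15 ciliated markers was called in lung by edgeR or DESeq2, and 0 had an unadjusted edgeR p under 0.05. Of the AT1 markers 6 rose and 1 fell of 12, with summed levels of 5068 to 6013 CPM in control and 7176 to 7538 CPM in Etv5KO AT2 cells. These 7 calls were 3 without Etv5KO library 1 or 5 or control library 1, and 4 without control library 3 or 4. Of the AT2 markers 1 rose and 5 fell of 14, with sums of 188694 to 287679 and 164760 to 213903 CPM, and 1 fell in lung. The 6 calls in AT2 cells were 3 without control library 1 or 3, and Il33, the rise, was lost in 8 alternative fits. Sftpa1, the fall in lung, was lost in 8 fits that leave out 1 library, all except those without control library 1 or Etv5KO library 4. Endothelial markers had 1 rise of 10, Car4, which is near the share of all genes, with sums of 108 to 162 and 115 to 194 CPM. Leukocyte markers had 1 rise of 11 tested, Cd68, with sums of 43.8 to 75.1 and 50.5 to 71.9 CPM, and 1 fall of 12 in lung, Marco, lost without Etv5KO library 3 or 5 or control library 3. None of 8 mesenchymal markers was called by edgeR or DESeq2, with 3 at an unadjusted edgeR p under 0.05 (Acta2, Dcn and Pdgfra), at sums of 47.7 to 76.6 and 56.7 to 104 CPM. Basal markers summed to at most 2.28 CPM in AT2 cells, with Dapl1 at 0 in all controls and Krt5 at 0 in all lung libraries, and neuroendocrine markers to at most 6.62 CPM, with no call in either list by edgeR or DESeq2 and 0 genes at an unadjusted edgeR p under 0.05. Calls in this paragraph are by edgeR's adjusted p, and the part of these cell types in the values of the 10 genes was not tested.

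Among 12 relatives that could share reads with the 10 genes, 7 were tested in AT2 cells and 3 rose, where 5.03% of all genes did. Bpifb5, a further gene of the Bpifb1 family, rose from 49.9 ± 5.46 to 68.1 ± 4.17 CPM, Aldh1a2 from 1.61 ± 0.253 to 2.86 ± 0.463 CPM and Dcxr, a reductase gene related to Cbr2, from 198 ± 12.0 to 249.8 ± 23.6 CPM (edgeR adjusted p = 0.00457, 0.0125 and 0.0195). The call of Dcxr was lost in 3 of the fits that leave out 1 library. Bpifb5 was more abundant than Bpifb1 in AT2 cells by CPM, a scale that does not divide by length. In lung none of 9 tested relatives was called by edgeR's adjusted p, and 1, Bpifb5, was called by DESeq2 and had an unadjusted edgeR p under 0.05.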

How the data were processed

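Polyadenylated RNA of 9 sorted AT2 and 10 lung libraries was sequenced. The series design names 5 mice per genotype, while control AT2 cells have 4 libraries among those available here. Replicate numbers follow accession order and pair nothing. Per the file headers, each deposited count gives the uniquely aligned reads of 1 gene model, and the authors' RPKM is divided by a size factor per library. Apart from a library factor and a gene length, RPKM values equalled the deposited counts to within 2.66e-14 on the log scale. They served only to compare levels between genes and to recover the size factors. GSNAP and build mm9 are named in the submitters' processing notes; for the annotation, the counting tool and the use of strand, the sources used here give nothing. Of 36528 Entrez IDs, 31049 were named from RefSeq (GRCm38.p6) and 78 from GENCODE, holding 98.81% of counts. No libraries were duplicates (chi-square per degree of freedom 7.81 to 61.8 between replicates).

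Counts were tested with edgeR 4.0.16 in R 4.3.3 after filterByExpr (minimum count 10, minimum total 15) and TMM scaling, with a two-sided quasi-likelihood F test, Benjamini-Hochberg adjustment over all genes tested and a threshold of 0.05. Each comparison used the libraries of its 2 groups, and the interaction all 19. Standard errors come from the F statistic, and 95% intervals were formed with them. Printed CPM use TMM over all 19 libraries. Fitted fold changes and ratios of mean CPM therefore differ slightly. Alternatives were RLE scaling, library size alone, the authors' size factors, no filter, DESeq2 1.42.0, 1 fit of all 19 libraries and leaving out each library. On data simulated from the AT2 libraries over 14939 genes, 55% of 1.5-fold and 83% of 2-fold changes were recovered with 6.12% false calls. For lung, over 17098 genes, these were 61%, 85% and 2.01%. Changes were placed only in genes above a minimum mean count, so the shares recovered do not cover sparser genes. They were placed in 100 genes per fold size, whereas 1474 genes were called in the AT2 data, so the shares there may differ.

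The 10 genes and all lists (other airway secretory genes, regulators, acute phase, cell type markers and relatives) were chosen with earlier results of these data known. Named are the 10 genes, up to 4 genes of each counted list with the smallest p among those that passed, or up to 2 with the highest mean CPM where none passed, and the 5 genes most like Scgb1a1 and Cyp2f2 at a mean of at least 5 CPM. All other genes named, marked so or not, were chosen after their values were seen, among them Foxj1, Upk3a and those given by an unadjusted p. 1 gene counted in the list of other airway secretory genes is not reported here by name.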

Additional observations from a re-analysis of the deposited data

Results flagged for a closer look

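In groups of 4 or 5 libraries, the gap of the highest or lowest library to its nearest neighbour was compared with Dixon's critical value for the 10 genes, and 6 of 40 groups had a library that stood apart, where chance gives about 1 in 20. Control lung library 1 was the lowest for Scgb1a1 at 12368 CPM, for Cyp2f2 at 1126 CPM and for Aldh1a1 at 461 CPM. These 3 are values of the same library. In Etv5KO lung, Bpifb1 was high in library 2 at 1.62 CPM, where the other 4 libraries were at 0.0423 to 0.154 CPM. Aldh1a1 was high in Etv5KO lung library 1 at 851 CPM. Cbr2 was low in control AT2 library 2 at 3459.6 CPM.

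The genotype effect on Cyp2f2 differed between AT2 cells and lung by 1.95 on the log2 scale in the interaction test (edgeR adjusted p = 0.000296). All 5 Etv5KO AT2 libraries were above all 4 controls, while the lung groups overlapped. A change in the AT2 cells of lung alone would move the lung value little, as given above.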

How the results depend on the processing

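Across scalings, filter, tool and fit, 53 of 58 counts of calls stayed within 1.5 times their value. In AT2 cells 7 of the 10 genes were called by DESeq2 and 2, Cyp2f2 and Hp, in 1 fit of all 19 libraries, and 2 to 6 with each library left out, the lowest without control library 4. Over all genes, lung had 197 calls by DESeq2, 122 in the fit of all 19 and 44 to 80 with a library left out (47 without control library 3, 44 without control library 4), against 71; the interaction had 467 by DESeq2 against 282. The lung log2 fold change of Muc5b, -0.01, was 0.020 by library size, 0.0022 with the authors' size factors, 0.0013 without the filter, 0.0091 by DESeq2 and 0.0006 in the fit of all 19. With a library left out, signs turned for genes that had not passed: Scgb1a1 in AT2 cells ran from -0.0146 to 0.37, and in lung Hp from -0.0861 to 0.0939, Bpifa1 from -1.18 to 0.25, Scgb3a1 from -0.38 to 0.19 and Muc5b from -0.32 to 0.27; the interaction of Bpifb1 ran from -0.0366 to 2.16. The Muc5b difference between AT2 cells and lung was called at -1.08 by library size. Without the 2 farthest libraries, Pearson's r with Scgb1a1 no longer passed in AT2 cells for Scgb3a1 (0.93), Scgb3a2 (0.87), Bpifb1 (0.73) and Hp (0.55), nor in lung for Scgb3a2 (0.86), Cyp2f2 (0.85), Hp (0.98) and Cbr2 (0.84), where fewer libraries enter. It changed sign for Cbr2 in AT2 cells (-0.53, and -0.31 by library size) and in lung for Scgb3a1 (-0.20), Bpifa1 (-0.30) and Aldh1a1 (-0.0744), none of which had passed; the cause was not tested. Of the fold changes of the 10 genes, 271 kept their direction and side of the threshold, 6 passed anew, 2 no longer passed and 5 changed sign; with a library left out these were 534, 6, 6 and 14. No paired analysis was possible because the library numbers follow accession order and the labels tie no libraries to each other. Counts of 1 to 53 per lung library limit what can be seen for Bpifa1, Bpifb1, Scgb3a1 and Muc5b.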
